A study of Mus musculus with 30 samples.

Results

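TEC genes are loci that GENCODE annotates as transcripts on the strength of clustered expressed sequence tags, without further experimental proof. The members described here are the TEC genes of GENCODE vM21 whose level averaged at least 3 CPM over 23 single mouse embryos, with CPM taken as the raw count over the summed mouse gene counts of the library. Of 3214 TEC genes in the count files, 210 reached this mean and 1285 had no count in any library. The members were thus chosen by their measured CPM in embryos of every genotype and stage, the same values that are compared between genotypes, and counts of changed members below are a description of the list.

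The embryos came from matings of *Dis3* het mice, which carry 1 copy of a null allele made with CRISPR-Cas9, and were collected singly at E2.5 or E2.75. The E2.5 set held 4 null, 2 het and 6 wild-type embryos, and the E2.75 set 3 null, 5 het and 3 wild-type ones. Libraries were made from the polyadenylated RNA of single embryos with ERCC spike-ins, and each genotype was read from DNA of the same embryo. Peaks of POU6F1 came from mouse embryonic stem cells transfected with *Pou6f1-mCherry*, with 2 replicates of an anti-mCherry precipitation.

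DIS3 is a catalytic subunit of the RNA exosome, a complex that trims and degrades RNA from its 3′ end. Many promoters are transcribed in both directions, and in most cells the upstream antisense product is short-lived because the nuclear exosome removes it. Such unstable RNAs, and polyadenylated fragments of introns, seldom appear in annotations built from stable messages, and expressed sequence tags are one of the few places where they were recorded.

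Library totals over all genes ran from 3283708 to 14015980 in wild-type, from 3009380 to 14013185 in het and from 1690192 to 9993650 in null libraries. Reads carry no molecular identifiers, so intervals and floors given below cover counting error only. Reads were counted without regard to strand and only where they lay wholly within annotated exons, so reads in an overlap of genes on opposite strands cannot be told apart, while intron reads of a host gene are counted for a member that lies in the intron. Each embryo is a bulk sample, in which fewer cells of a type and less RNA per cell cannot be told apart.

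*Dis3* itself was measured first, as a check of the genotypes. It lay between 16.6 and 128 CPM in wild-type embryos (median 95.2), between 33.6 and 58.1 CPM in het embryos (median 48.4) and between 0 and 24.8 CPM in null embryos (median 12.7). Null and het embryos did not overlap, while replicate 6 of the E2.5 wild-type embryos, at 16.6 CPM, lay within the range of the null embryos. Replicate 5 of the E2.5 wild-type embryos, at 31.5 CPM, lay below every het embryo and above every null embryo. The log2 fold change of *Dis3* was -2.06 in null over het (standard error 0.53, adjusted p = 0.0253 by edgeR) and -3.01 in null over wild-type embryos (standard error 0.54, adjusted p = 0.0009). Null embryos compared with wild-type embryos gave 47 members called up with E2.5 wild-type replicate 6 and 45 without it.

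Markers checked the labelled tissue. Summed over 9 markers of the morula and early embryo, of which *Dppa3* was the most abundant, the level was 6162 to 16789 CPM in wild-type, 6567 to 13350.3 CPM in het and 6553 to 13231.5 CPM in null embryos. *Gata3*, a trophectoderm transcription factor, was the only 1 of these 9 called in null over het, at -2.12 (adjusted p = 0.0094). Its median was 241 CPM in het embryos, 38.9 CPM in null and 30.9 CPM in wild-type embryos, and its difference in null over wild-type was 0.11 (adjusted p = 0.959). *Cdx2* (-2.63, adjusted p = 0.141) and *Nanog* (-1.37, adjusted p = 0.176) were lower in null over het without being called. The 9 markers ran from -2.63 to 0.50 with a median of -0.12. The 6 oocyte markers, led by *Zp3*, summed to at most 58.8 CPM in any embryo, and none of the 5 tested was called. The 7 markers of cumulus and granulosa cells summed to at most 0.747 CPM in wild-type, 2.99 CPM in het and 17.1 CPM in null embryos, with *Inha* and *Ptx3* at 0. The most abundant was *Has2*, whose 62 counts all lay in E2.5 null replicate 3. Of 3 blood markers, *Hbb-bs* was at 0 and *Hba-a1*, the most abundant, averaged 0.740 CPM.

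All 210 members have a single exon, with annotated lengths of 434 to 30942 bases and a median of 2467. Of these, 168 touch no exon of another gene and 42 do. Their mean levels ran from the limit of 3 to 95.4 CPM with a median of 5.70, and from 0.391 to 35.5 CPM per kilobase with a median of 2.41. Counts were present in every library for 80 members. Just inside the limit were *Gm42636* (3.03 CPM), *Gm43379* (3.02) and *AA914427* (3.02), and just outside it *Gm37250*, *Gm36931* and *Gm38157*, at 2.99 CPM each. A mean of at least 3 in the wild-type embryos alone was reached by 145 members, and the 65 others passed through the het or null embryos.

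Position relative to protein-coding genes was read from the annotation. Inside a protein-coding gene lay 166 members (79.0%, against 62.6% of all TEC genes), 14 lay upstream and 5 downstream within 5 kb, and 25 were farther away (11.9%, against 27.7% of all TEC genes). The largest group, 126 members (60.0%, against 45.6%), lay wholly within an intron on the strand of the host gene. Another 8 were intronic on the opposite strand, 23 overlapped an exon on the opposite strand and 9 overlapped one on the same strand. Of the 14 upstream members, 10 lay on the opposite strand and 4 on the same strand, and of the 5 downstream, 2 and 3 did so. The members were shared out over 183 protein-coding partners, the gene that contains a member or lies nearest to it, with 8 members at *Satb1* and 4 at *Enah*.

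Members were compared in a single edgeR fit of all 23 embryos with the stages merged by genotype. Calls required a difference of more than 1 on the log2 scale together with an adjusted p below 0.1. All 210 members passed edgeR's filter on low counts. In null over het embryos, 43 members (20.5%) were called up and 1 (0.476%) down, where 3.67% of all 13415 genes tested were called up, 2.06% down and 5.73% either way. The log2 fold change was above 0 for 155 members, with a median of 0.74, beside 0.02 over all genes tested. The null embryos were all higher than the highest het embryo for 26 members and all lower than the lowest for 1, against 1.92% and 0.82% of all genes tested.

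Null over wild-type embryos shares the null embryos with this comparison, and its values are given beside it. It called 47 members up and 1 down, against 3.66% up, 1.59% down and 5.25% either way of all genes tested, with a median of 0.60, and 38 members were called up against het and wild-type embryos alike. The median is also 0.60 with *Gm37817*, which had no wild-type count, at its lower bound. Every null embryo lay above every wild-type embryo for 22 members, against 1.59% of all genes, and below for 0, against 0.0969%. The member called down, *Gm37248* in an intron of *Satb1* (-2.80, adjusted p = 0.0826), is named because it was the only 1, after its values were seen. It was not called without E2.5 wild-type replicates 3, 4 or 5, E2.5 null replicates 1, 3 or 4, or E2.75 null replicate 2, each left out alone, when the number called down was 0. It was 2 without E2.5 wild-type replicate 1, 3 without E2.75 null replicate 1 and 4 without E2.75 null replicate 3.

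Het over wild-type embryos called 0 members in either direction by edgeR, as it did for 0% of all genes. In that comparison 9 of 210 members had an unadjusted p under 0.05, against 6.96% of all genes, and DESeq2 called 3 up and 2 down, beside 37 and 28 of all 33616 genes it fitted. Without E2.5 het replicate 1, edgeR called 1 member down.

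The summed level of the 210 members was 1287 to 2087 CPM in wild-type embryos (median 1565), 1213 to 1976 CPM in het embryos (median 1789) and 2474 to 3853 CPM in null embryos (median 3113). All 7 null embryos lay above all 16 others, with a mean 1.98-fold that of het and 2.02-fold that of wild-type embryos. Library measures differed between the groups too. Outside the annotated exons lay 21% to 33.4% of reads in wild-type, 21.2% to 27.9% in het and 32.3% to 43.9% in null libraries, null libraries were shallower (median 4808323 counts, against 8895879 in het) and ERCC counts were 3.26% to 7.03% in null, 2.06% to 4.64% in het and 2.53% to 7.44% in wild-type libraries. Within each stage the null libraries stood apart in reads outside exons, at 32.3% to 39.5% against at most 25.9% in all other E2.5 libraries, and at 41.1% to 43.9% against at most 33.4% in all other E2.75 libraries. In depth and ERCC share null libraries overlapped wild-type libraries, while in ERCC share they stood above the het libraries within each stage, at 6.23% to 7.03% against 2.16% to 4.64% at E2.5 and at 3.26% to 5.01% against 2.06% to 3.10% at E2.75. The part of these measures in the rise of the members was not tested.

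Scaling to the ERCC spike-ins in place of TMM moved the median of all genes tested to -1.08 in null over het and to -0.37 in null over wild-type, and the members' median flipped to -0.44 in the first and fell to 0.25 in the second. Relative to all genes, the members' median stayed 0.64 and 0.62 higher, beside 0.72 and 0.62 with TMM. For the other comparisons this scaling moved the median of all genes to -0.74 in null over het at E2.75, to -1.15 at E2.5 and to 0.71 in het over wild-type, with members' medians of 0.04 in the first, flipped to -0.39 in the second and flipped from -0.08 to 0.68 in the third. With this scaling 34 members were called up and 16 down in null over het with the stages merged, where 289 of all 13415 genes tested were called up and 4487 down.

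Members were also grouped by where they start relative to a protein-coding start. This grouping was chosen after the values were seen. The start of 28 members (13.3%, against 7.37% of all TEC genes) lay within 1 kb of the annotated start of a protein-coding gene on the opposite strand, 125 others were intronic on the host's strand, and 57 had other positions. The 28 distances ran from 12 to 911 bases with a median of 185, and 16 members started before the coding start and 12 inside the coding gene. Of the 28 members, 8 touch no exon of another gene.

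The 28 are called divergent below as a label only, since the 12 that start inside the coding gene face its start. Among these 28 divergent members, 20 were called up in null over het, 27 had a log2 fold change above 0, and the median was 3.79. Of the 16 that start before the coding start 11 were called up (median 3.97), and of the 12 that start inside the gene 9 were (median 3.45). For 13 of the 28 the null and het embryos did not overlap. In null over wild-type 20 were called up, with a median of 3.31, and 19 of these were called up over het too. With ERCC scaling, which called 289 of all 13415 genes up, 20 of the 28 were called up in null over het with a median of 2.56. By contrast, 11 of the 125 intronic members were called up and 1 down in null over het, with a median of 0.28, and 12 of the 57 others were called up, with a median of 0.87. With ERCC scaling, which moved the median of all genes to -1.08, these 2 medians flipped to -0.83 and -0.23, and 3 and 11 were called up. By DESeq2 22 divergent, 22 intronic and 18 other members were called up, beside 1247 of all 33616 genes it fitted. With the replicate number as a block these counts were 12, 5 and 8, beside 216 of all 13415 genes tested. The 8 divergent members that touch no exon included 6 called up.

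**Figure D1:**
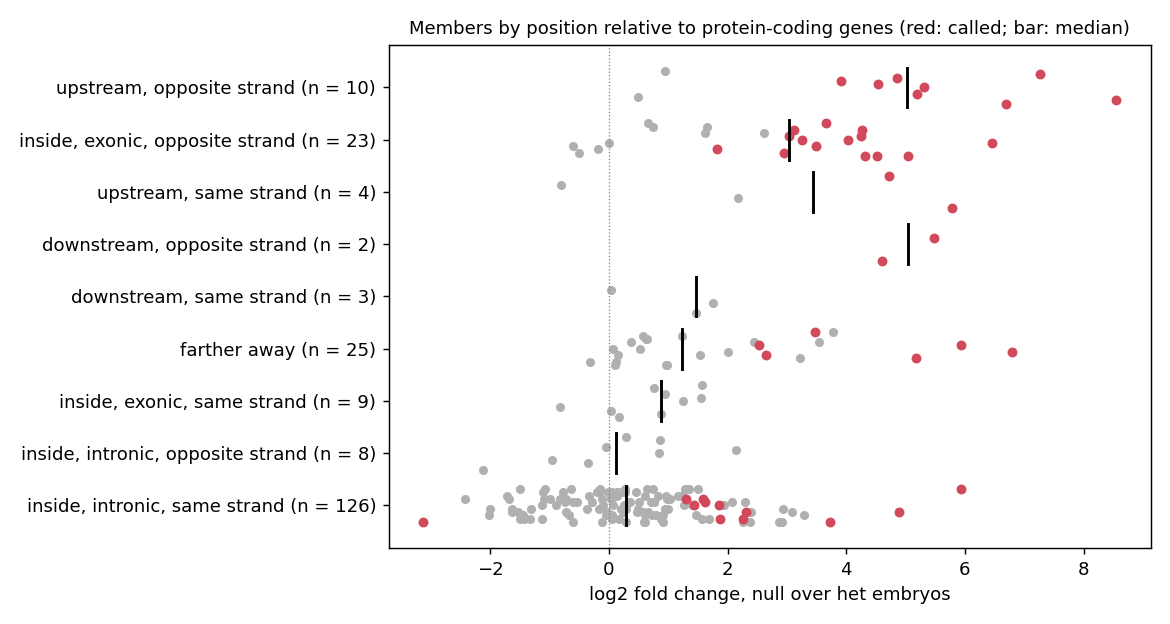
Log2 fold change of each of the 210 members in null over het embryos (horizontal axis), by position relative to protein-coding genes, with called members in red and a bar at the median. Members upstream on the opposite strand (8 of 10 called up, median 5.03) and over an exon on the opposite strand (14 of 23, median 3.03) lie far to the right of those in introns on the same strand (11 of 126 called up, median 0.28). Of all genes tested 3.67% were called up. Of the 10 and the 23, 1 and 12 averaged at least 3 CPM in wild-type embryos, and the rest entered through other embryos.

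**Figure D2:**
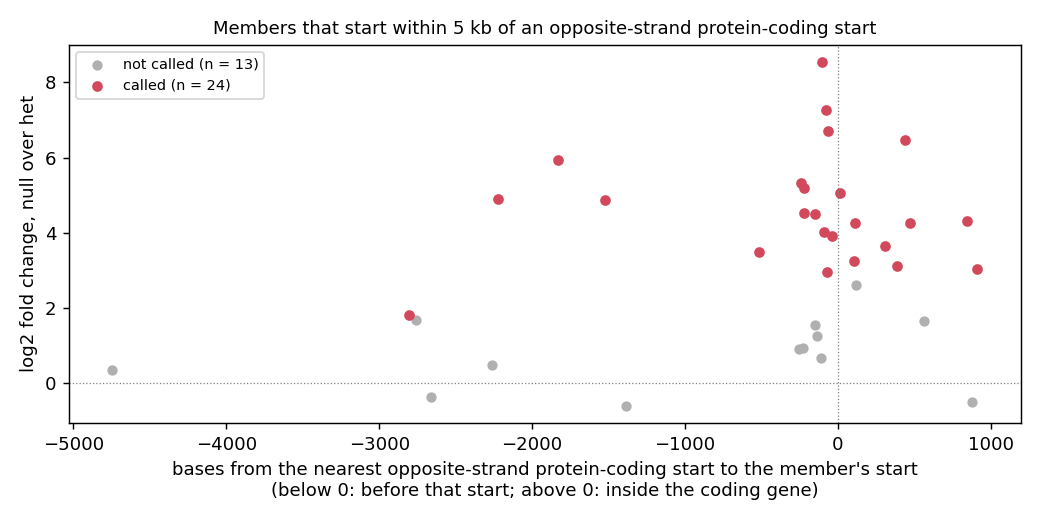
Log2 fold change in null over het (vertical axis) of the 37 members that start within 5 kb of an opposite-strand protein-coding start, against the distance in bases from that start (horizontal axis). Of the 28 within 1 kb 20 were called up, and of the 9 farther out 4 were.

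By position alone, upstream members on the opposite strand gave 8 of 10 called up in null over het and those over an exon on the opposite strand 14 of 23, where 3.67% of all genes tested were called up. Only 1 of these 10 and 12 of these 23 averaged at least 3 CPM in wild-type embryos. The rest entered the list through the het or null embryos. Of the 4 upstream on the same strand 2 were called up, of the 2 downstream on the opposite strand 2, and of the 25 farther away 6. The remaining groups had medians of 0.87 (9 members over an exon on the same strand), 0.12 (8 intronic on the opposite strand) and 1.48 (3 downstream on the same strand). Over the whole list DESeq2 called 62 members up and 5 down, beside 1247 and 548 of all 33616 genes it fitted.

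The rule itself favours members that rise. Of the 28 divergent members, 18 averaged under 3 CPM in wild-type embryos, so they entered the list through the group in which they are high and had to differ. Of the 65 members under 3 CPM in wild-type embryos, 27 were among the 43 called up. A choice by wild-type embryos alone does not use the null or het embryos. It gave 162 TEC genes, 145 of them members, of which 160 were tested and 16 (10.0%) called up and 2 down in null over het, with a median of 0.36. Its 10 divergent genes had a median of 1.6, with 9 above 0 and 4 called up. Of these 4, *9430081H08Rik* lies upstream of its partner, while *4933440N22Rik*, *AA474408* and *D730044K07Rik* overlap an exon of theirs on the opposite strand. Of the 107 intronic genes tested in this choice 9 were called up (median 0.23), and of the 43 others 3 (median 0.62).

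Sums over all TEC genes of a position need no limit on the level, but they include the members. The divergent group was also defined after the values were seen. In null embryos the 28 divergent members averaged 618 CPM of the 890 CPM of all divergent TEC genes. The sum of the divergent genes is thus not independent of the members. The divergent TEC genes, 237 in all, were taken on either side of the coding start and not split by side. They summed to 81.3 to 184 CPM in wild-type embryos (median 106), 99.9 to 181 CPM in het embryos (median 123) and 511 to 1454 CPM in null embryos (median 888). Every null embryo was thus above every other embryo, with a mean 6.98-fold that of het and 7.37-fold that of wild-type embryos. The 1461 intronic TEC genes summed to 1151 to 2024 CPM in wild-type, 1088 to 1918 CPM in het and 1684 to 2554 CPM in null embryos, a mean 1.32-fold that of het embryos with overlapping ranges. The 1516 TEC genes at other positions summed to 506 to 892 CPM in wild-type, 531 to 843 CPM in het and 974 to 1874 CPM in null embryos, 2.15-fold over het and without overlap.

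**Figure D3:**
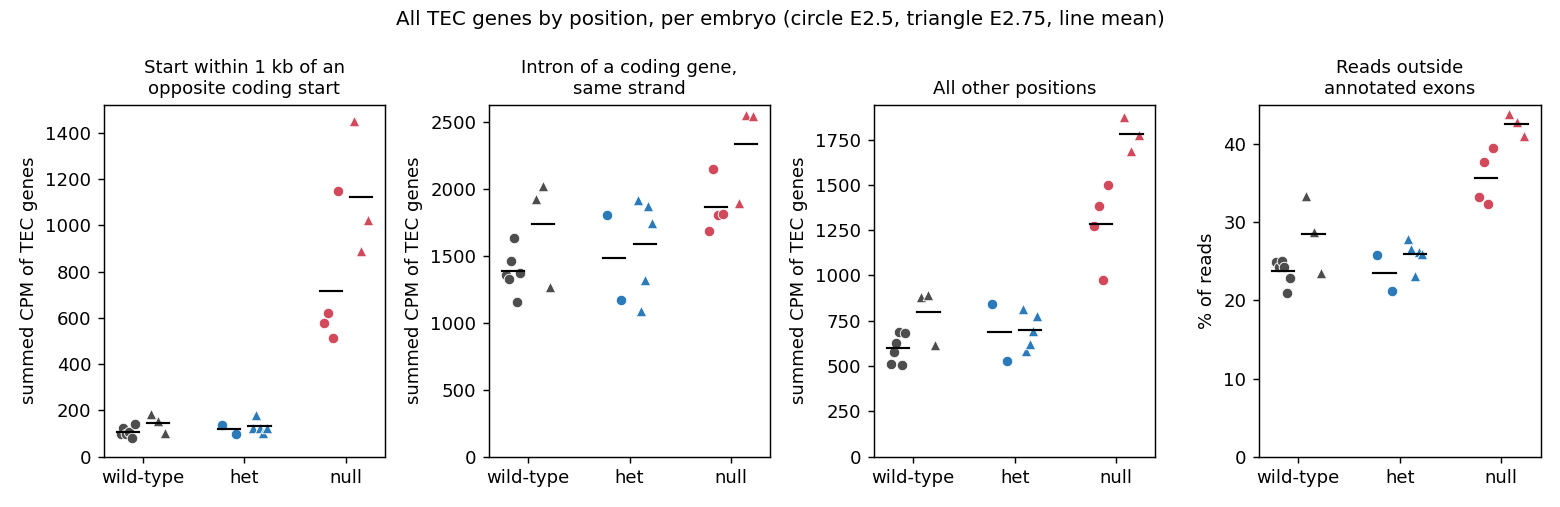
Summed CPM of all TEC genes in each embryo (vertical axes) by genotype, for 237 divergent, 1461 intronic and 1516 other TEC genes, and the percentage of reads outside annotated exons, with circles for E2.5, triangles for E2.75 and lines at the mean of each stage. The null embryos lie between 511 and 1454 CPM for divergent TEC genes, and all others between 81.3 and 184 CPM.

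TEC genes under the limit of 3 CPM entered the test only where enough libraries held counts, which a gene can meet through the null embryos alone, so their values are no independent support. Of 29 divergent ones tested (of 209) 3 were called up and 0 down (median 1.87), of 146 intronic ones 1 up and 3 down (median -0.08) and of 63 others 5 up and 1 down (median 0.74). Among other biotypes, 45.5% of 55 tested bidirectional promoter lncRNAs were called up in null over het (median 2.52), as were 20.1% of 349 antisense genes, 18.5% of 389 lincRNAs and 1.63% of 11220 protein-coding genes, beside 11.6% of 448 TEC genes tested.

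The sequences between the starts show how close divergent members lie to their partners, and are printed for 3 members that touch no exon of another gene. Each is read from GRCm38 on the strand of the coding gene, from 15 bases within the member to 15 bases within the coding gene, and capitals mark the bases between the 2 annotated starts. They lie at chr6:87851092-87851223 on the minus strand, at chr6:113046134-113046239 on the plus strand and at chr1:160212861-160212957 on the minus strand, and hold 16, 7 and 6 CG dinucleotides in capitals.
Gm44064-Cnbp: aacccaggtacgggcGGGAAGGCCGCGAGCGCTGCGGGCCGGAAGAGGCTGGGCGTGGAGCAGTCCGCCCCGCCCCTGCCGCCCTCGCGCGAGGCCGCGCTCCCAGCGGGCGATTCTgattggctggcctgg
Gm43868-Thumpd3: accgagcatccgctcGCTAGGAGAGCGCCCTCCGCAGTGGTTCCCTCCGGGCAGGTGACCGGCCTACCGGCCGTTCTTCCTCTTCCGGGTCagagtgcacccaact
4933417C20Rik-Cacybp: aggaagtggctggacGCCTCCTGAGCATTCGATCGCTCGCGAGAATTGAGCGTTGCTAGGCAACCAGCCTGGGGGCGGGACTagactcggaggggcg

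Of the members described next, *Gm44064*, *Gm43868*, *4933417C20Rik*, *Gm27680*, *Gm26616*, *Gm48296*, *Gm43399*, *Gm38026*, *Gm37817* and *AA914427* averaged under 3 CPM in wild-type embryos. They entered the list through the null embryos. All but the last were named for the size of their rise or for groups that do not overlap. Their separation and p-values are a description and no independent support. *Gm44064* starts 103 bases before *Cnbp*, which encodes a zinc finger protein that binds nucleic acids. It lay between 12.3 and 31.0 CPM in null embryos (median 23.1), between 0 and 0.173 CPM in het embryos (median 0) and between 0 and 3.61 CPM in wild-type embryos (median 0.0806). Null embryos stood apart from all others, and 5 of 7 het libraries had no count. With 3 counts in the het libraries and 778 in the null ones, the pooled ratio was 447 (95% counting interval 153 to 2175). The fitted value of 8.55 on the log2 scale (standard error 1.34, adjusted p = 0.000413) depends on the prior count at such a level, and over wild-type embryos it was 4.48 (adjusted p = 0.00593). *Cnbp* changed by 0.42 in null over het (adjusted p = 0.533).

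*Gm43868* starts 77 bases before *Thumpd3*, which encodes a tRNA methyltransferase. Its level was 18.2 to 86.7 CPM in null embryos (median 52.2), at most 0.997 CPM in het embryos and at most 1.25 CPM in wild-type embryos, with medians of 0 and 0.0713. No null embryo came near the others. The log2 fold change was 7.27 over het (standard error 1.06, adjusted p = 0.000284) and 7.16 over wild-type embryos, against 0.31 for *Thumpd3* (adjusted p = 0.662). Averaged over the 23 embryos, the level per length was 8.02 CPM per kilobase for the member and 7.94 for *Thumpd3*. That mean pools the genotypes, and the member's counts lay almost wholly in null embryos. *Thumpd3* had medians of 57.8 CPM in null and 59.1 CPM in het embryos.

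*4933417C20Rik* starts 68 bases before *Cacybp*, which encodes a protein of a ubiquitin ligase complex. Null embryos held 7.1 to 32.2 CPM (median 20.4), het embryos at most 0.997 CPM and wild-type embryos at most 3.44 CPM, so the null embryos were apart from both. In null over het the difference was 6.70 (standard error 1.42, adjusted p = 0.00628), and *Cacybp* moved by -0.58 (adjusted p = 0.316). At E2.75 alone *Cacybp* was called down by edgeR (-1.20, adjusted p = 0.0239). Per length, *Cacybp* averaged 153 CPM per kilobase and the member 3.07.

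*Gm27680* starts 219 bases before *Pitpnb*, the gene of a phosphatidylinositol transfer protein. It was at 20.7 to 89.3 CPM in null embryos (median 30.3), 0.376 to 2.25 CPM in het embryos (median 0.856) and 0 to 4.37 CPM in wild-type embryos (median 1.52). All null embryos exceeded all others. The difference was 5.19 over het (standard error 0.74, adjusted p = 0.00025) and 4.40 over wild-type, with 0.46 for *Pitpnb* (adjusted p = 0.363).

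*AA474408* and *4933440N22Rik* start inside their partners, 108 bases into *Zfp143*, a transcription factor gene, and 911 bases into *Hnrnpf*, the gene of an RNA-binding splicing factor. *AA474408* lay at 26.2 to 229 CPM in null embryos (median 94.6), 2.35 to 17 CPM in het (median 8.63) and 2.99 to 18.4 CPM in wild-type embryos (median 6.45). *4933440N22Rik* lay at 9.09 to 67.9 CPM in null embryos (median 26.6), 3.14 to 5.39 CPM in het (median 3.95) and 1.43 to 6.98 CPM in wild-type embryos (median 3.61). For each of them every null embryo was above every other embryo, and the controls were well above 0. Their log2 fold changes over het were 3.25 (standard error 0.53, adjusted p = 0.000587) and 3.03 (standard error 0.50, adjusted p = 0.000754), with -0.02 for *Zfp143* and -0.20 for *Hnrnpf*. Of their annotated bases, 96.7% and 79.0% touch no exon of another gene.

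*Gm26616* starts 438 bases inside *Ppp1r15b*, which encodes a regulatory subunit of a phosphatase of translation factor eIF2. Null embryos held 5.2 to 85.7 CPM (median 26.0) and het embryos at most 0.980 CPM, while E2.75 wild-type replicate 1, at 13.7 CPM, lay within the null range. The other wild-type embryos were at or under 1.70 CPM. The difference over het was 6.46 (standard error 1.33, adjusted p = 0.00509), and -0.03 for *Ppp1r15b*.

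**Figure D4:**
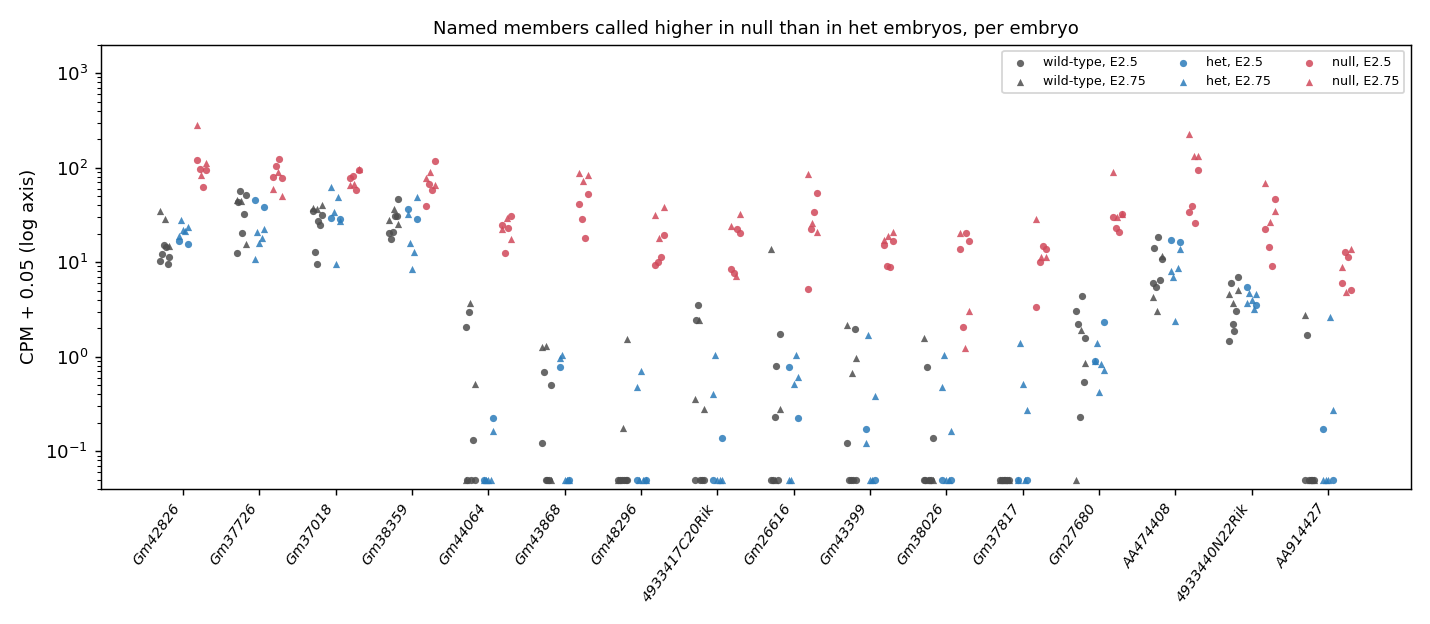
CPM plus 0.05 on a log axis (vertical) for the 16 named members called up in null over het, in each embryo, with circles for E2.5 and triangles for E2.75. The lowest points are libraries with no count, and null embryos of *Gm43868* lie between 18.2 and 86.7 CPM, and het embryos at most at 0.997 CPM.

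The protein-coding partners of the 28 divergent members differed less, in a comparison that the rule favours. Of the members, 18 averaged under 3 CPM in wild-type embryos and had to differ to enter, while partners were chosen by position alone. Of the 28 partner genes, 27 were tested in null over het, with 4 at an unadjusted p under 0.05, where 17.3% of all genes tested had such a p. Their log2 fold changes ran from -0.77 to 1.08 with a median of 0.11. For the 125 intronic members, 107 of 108 host genes were tested, with 1 called up and 4 down (against 3.67% and 2.06% of all genes) and a median of 0.00.

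**Figure D5:**
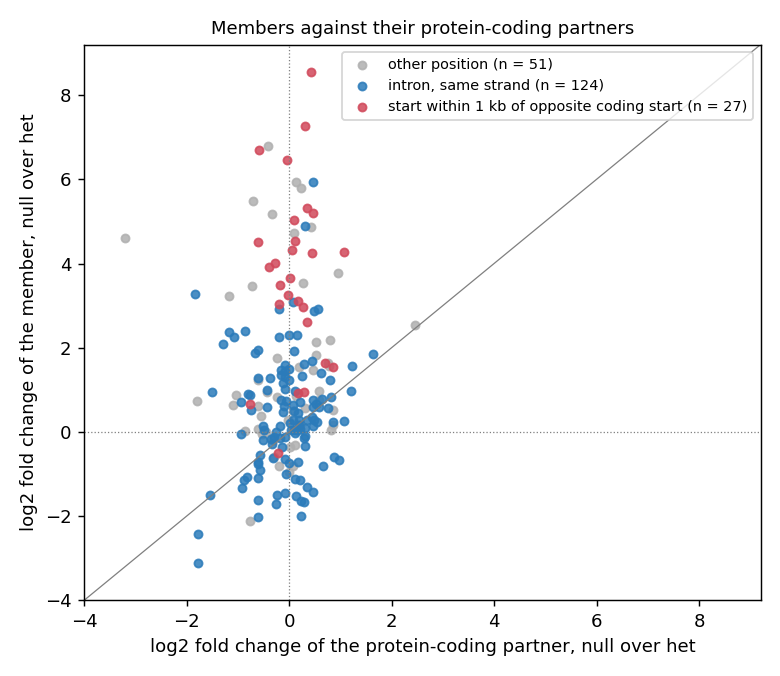
Log2 fold change in null over het of the 202 members with a tested partner (vertical axis) against that of the protein-coding partner (horizontal axis), with a diagonal at equal change. Divergent members (27 points) reach 8.55 while their partners stay between -0.77 and 1.08. Members had to reach the mean level of the rule, and partners were not chosen by level.

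Several members that rose lie away from coding starts on the opposite strand. *Gm42826* is 184523 bases from *Ndst4*, a gene of heparan sulfate modification. It was at 62.2 to 283 CPM in null embryos (median 97.5), 15.5 to 27.6 CPM in het embryos (median 21.4) and 9.59 to 34.7 CPM in wild-type embryos (median 14.5), so that null embryos stood apart from well-expressing controls. The difference was 2.65 over het (standard error 0.32, adjusted p = 3.6e-05) and 2.87 over wild-type embryos (standard error 0.29). *Ndst4* had no count in het or null embryos and was not tested. Per length, *Gm42826* averaged 18.9 CPM per kilobase.

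*Gm48296* lies farther than 5 kb from any protein-coding gene. It had 9.31 to 38.4 CPM in null embryos (median 17.7), at most 0.658 CPM in het and at most 1.5 CPM in wild-type embryos. Null embryos were apart from the others, and the difference over het was 6.80 (standard error 1.30, adjusted p = 0.00265). *Gm43399*, 72465 bases from the T-box gene *Tbx3*, had 8.81 to 21 CPM in null embryos (median 16.6), at most 1.66 CPM in het and at most 2.13 CPM in wild-type embryos. Again the null embryos did not overlap the rest, with a difference of 5.93 over het (standard error 1.31, adjusted p = 0.00879).

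*Gm38026* lies in an intron of *Zranb3*, a DNA repair gene, and starts 1831 bases before *R3hdm1* on the opposite strand. Null embryos held 1.18 to 20.4 CPM (median 13.7), het embryos at most 0.997 CPM and wild-type embryos at most 1.52 CPM. Null embryos lay above het embryos, though the lowest fell within the wild-type range, and the difference over het was 5.93 (standard error 1.45, adjusted p = 0.0169). *Gm37817* lies 424 bases upstream of *Ybx1*, which encodes an RNA-binding protein, on the same strand. It had 3.30 to 28.2 CPM in null embryos (median 11.3), at most 1.33 CPM in het embryos and no count in any of the 9 wild-type embryos. Null embryos were thus at least 279-fold higher than wild-type embryos, with a floor of 3 counts over the wild-type group and the lower of the mean and the pooled level of the null embryos, and the difference over het was 5.78 (standard error 1.22, adjusted p = 0.0096). *Ybx1* differed by 0.24.

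*AA914427*, the member of lowest mean level among the 16 plotted, was called at 4.61 over het (standard error 1.52, adjusted p = 0.0919). This call was lost in 13 of 30 settings, 12 of them with a single embryo left out.

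Among the 125 intronic members, the most abundant were high in control embryos too. *Gm38357*, in an intron of *Noct*, lay at 42.3 to 138 CPM in null embryos (median 124), 33.1 to 118 CPM in het (median 49.7) and 21.5 to 90.5 CPM in wild-type embryos (median 43.9). Its groups overlap, and it was called over wild-type embryos (1.18, adjusted p = 0.0483) and not over het embryos (0.91, adjusted p = 0.182). *Noct* averaged 3.47 CPM per kilobase against 27.7 for the member, and changed by -0.81 over het (adjusted p = 0.349).

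*Enah*, an actin regulator gene, hosts 4 members, which share their host and are not independent of it. *Gm37018* was at 57.6 to 97.3 CPM in null embryos (median 77.9), 9.49 to 61.8 CPM in het (median 29.5) and 9.41 to 40.4 CPM in wild-type embryos (median 31.2). *Gm38359* was at 39.2 to 117 CPM in null (median 66.8), 8.37 to 48.3 CPM in het (median 28.8) and 17.3 to 46.2 CPM in wild-type embryos (median 28.0). Null embryos of *Gm37018* were all above wild-type embryos and overlapped het embryos, and those of *Gm38359* overlapped both. Over het the differences were 1.30 (standard error 0.34, adjusted p = 0.0256) and 1.58 (standard error 0.36, adjusted p = 0.0104), while *Enah* itself differed by -0.09 (adjusted p = 0.927). With ERCC scaling they were 0.10 and 0.40 and were not called.

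The 2 other members in *Enah*, named after their values were seen, were *Gm37258* (1.44, adjusted p = 0.0709) and *2700078F05Rik* (-0.12, not called). *Gm37726* in an intron of *Fbxw7*, an F-box gene, was at 49.8 to 122 CPM in null (median 78.6), 10.8 to 45.5 CPM in het (median 20.6) and 12.4 to 56.1 CPM in wild-type embryos (median 43.5). Null embryos were above every het embryo but not above every wild-type embryo, with 1.85 over het (standard error 0.39, adjusted p = 0.00628), which was 0.72 and not called with ERCC scaling. *Fbxw7* changed by 1.63 with a standard error of 1.18.

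*Satb1*, the gene of a chromatin organizer, is the partner of 8 members. Of these 1 was called up in null over het, *Gm6934*, which starts 147 bases before *Satb1* on the other strand (4.51, standard error 1.08, adjusted p = 0.0153, named after its values were seen). The others included *Gm37248*, at -2.02 over het and called down over wild-type embryos. *Satb1* differed by -0.61 (adjusted p = 0.165). *Gm36931*, just under the limit of the rule and overlapping *Satb1* on its strand, had 2 counts in all null libraries and 340 in the het ones.

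Of the members of highest level, *G430049J08Rik* (95.4 CPM), *Gm43323* (55.2 CPM) and *Gm43984* (41.4 CPM) were not called in null over het with the stages merged (log2 fold changes of 0.37, 0.94 and 0.64). At E2.75, null embryos of *Gm43323* lay at 85.8 to 167 CPM, against at most 79.0 CPM in het and 47.1 CPM in wild-type embryos. Those of *G430049J08Rik* lay at 117 to 299 CPM, against at most 105 CPM in het and 127 CPM in wild-type embryos. At E2.5 the null and het embryos of both members overlapped, as did those of *Gm43984* at E2.75. *G430049J08Rik* lies 33608 bases from *Bambi*, *Gm43323* overlaps an exon of *Rbm47* and *Gm43984* lies in an intron of *Etv6*. The 8 members of highest mean level together held 21.3% of the summed mean CPM of all members.

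*Gm44769*, in an intron of *Reep1*, a gene that shapes the endoplasmic reticulum, was the 1 member called down in null over het. It was at 0.425 to 4.58 CPM in null (median 2.50), 6.11 to 43.3 CPM in het (median 17.9) and 2.42 to 13.8 CPM in wild-type embryos (median 7.06). Null embryos lay below het embryos and overlapped wild-type embryos. The difference over het was -3.13 (standard error 0.61, adjusted p = 0.00344), over wild-type it was -1.39 (adjusted p = 0.199), and *Reep1* itself fell by 1.78 on the log2 scale over het (adjusted p = 0.00913). Without E2.5 null replicate 1, E2.75 null replicate 1 or E2.75 null replicate 3, the number called down was 2, 4 and 2.

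Members called over wild-type embryos but not over het embryos included *Gm49413* in *Adck5* (3.23, adjusted p = 0.0092), *Gm37115* in *Cop1*, the gene of a ubiquitin ligase (3.04, adjusted p = 0.0378), and *Gm42585*, which overlaps an exon of the histone methyltransferase gene *Kmt2c* (1.87, adjusted p = 0.038). *Gm49413* was at 3.70 to 22.1 CPM in null and 0.125 to 2.4 CPM in wild-type embryos, with 0.245 to 5.49 CPM in het embryos. Null and wild-type embryos did not overlap for this member, and null and het embryos did. Over het, *Gm49413*, *Gm37115* and *Gm42585* differed by 2.08, 1.5 and 1.63. *Gm42585* was called over het by DESeq2 (adjusted p = 0.0369).

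The stages were then taken separately. Among the E2.75 embryos, 3 null and 5 het, 38 members were called up and 1 down in null over het, against 2.51% up, 2.31% down and 4.82% either way of all genes tested, with a median of 0.76. The 28 divergent members gave 16 of these. The count of 38 was 19 without null replicate 1, 24 without null replicate 2 and 15 without null replicate 3. Among the E2.5 embryos, 4 null and 2 het, edgeR called 0 members in either direction, against 0% and 0.0126% of all genes, while 43 members had an unadjusted p under 0.05 (against 9.26% of all genes). DESeq2 called 33 members up and 3 down, beside 456 and 155 of all 29669 genes it fitted.

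The median at E2.5 was 0.93, or 0.91 with the 12 members without counts in a group at their lower bound, 145 members were above 0, and that of the divergent members was 3.4. A direct test of the stage difference in null over het called 0 members by edgeR, against 0% of all genes, with 18 of 210 at an unadjusted p under 0.05 (against 6.61% of all genes), while DESeq2 called 1 up and 1 down, beside 23 and 57 of all 33616 genes it fitted. That edgeR called members at E2.75 and none at E2.5 is therefore not shown to be a difference between the stages.

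In wild-type embryos, E2.75 over E2.5 called 4 members up and 2 down, against 3.74% up, 3.64% down and 7.38% either way of all genes tested, and DESeq2 called 5 up and 9 down, beside 954 and 998 of all 33616 genes it fitted. *Gm43274*, in an intron of the Mediator gene *Med13l*, was at 9.44, 16.7 and 5.78 CPM in the 3 embryos of E2.75 and at most 0.214 CPM in the 6 of E2.5. Its stages did not overlap in wild-type embryos, with a difference of 6.09 (standard error 1.01, adjusted p = 0.00121) and 0.88 for *Med13l*. In het embryos they did, at 3.31 and 10.5 CPM at E2.5 and 3.37 to 12.6 CPM at E2.75. Null embryos were apart, at 0.208 to 3.30 CPM at E2.5 and 7.69 to 20.4 CPM at E2.75. *Gm37795*, 16368 bases from *Gpr157*, was at 15.8, 2.86 and 13.9 CPM at E2.75 and at most 1.07 CPM at E2.5 (3.79, standard error 1.04, adjusted p = 0.033).

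*Gm45084*, in an intron of *Smg1*, a kinase gene of nonsense-mediated decay, was at 6.09, 3.61 and 5.55 CPM at E2.75 and at most 0.640 CPM at E2.5 (4.44, adjusted p = 0.0647). *Gm48296*, described above, had no count in the 6 wild-type embryos of E2.5 and 14 counts at E2.75, at least 10.9-fold higher over a floor of 3 counts in the group. Of these 14 counts, 13 lay in E2.75 wild-type replicate 3, without which the 1 count left is under the floor and gives no bound. Both of these separate the stages except that 1 E2.75 embryo of *Gm48296* had no count. The 4 rises became 7 without E2.5 wild-type replicate 6, 2 without E2.75 wild-type replicate 1 and 1 without E2.75 wild-type replicate 3.

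*Gm47161*, 43667 bases from *Cadm1*, a cell adhesion gene, had no count in the 3 wild-type embryos of E2.75. It lay at 0 to 24.3 CPM in those of E2.5, so the ranges meet at 0. It is lower at E2.75, by at least 50.1-fold over a floor of 3 counts in the group (adjusted p = 0.065), or 27.7-fold without E2.5 wild-type replicate 1, the embryo at 24.3 CPM. In the other genotypes the stages overlapped. Het embryos were at 0.123 and 15.7 CPM at E2.5 and 0.332 to 8.78 CPM at E2.75, and null embryos at 0 to 12.4 and 0.142 to 12.4 CPM. The 2 falls became 0 without E2.75 wild-type replicate 1 or 3. They became 1 without E2.75 wild-type replicate 2, E2.5 wild-type replicates 2, 3 or 4, E2.5 null replicate 3, E2.75 het replicates 1, 2, 3, 4 or 5, or E2.75 null replicates 2 or 3, each left out alone. ERCC scaling moved the median of all genes in this comparison to 0.89 and flipped the members' median from -0.10 to 0.78.

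The 3′ ends of the members were read because oligo-dT captures poly(A) tails and can also prime on runs of A within a transcript. A poly(A) signal, AATAAA or ATTAAA on the gene's strand in the last 50 bases, was found at 46 members (21.9%), against 28.9% of all TEC genes and 72.1% of protein-coding genes. A run of AAAAAA in the last 10 bases or the 30 bases after the end was found at 93 members (44.3%), against 28.5% and 5.99%. Intronic members had a signal at 14.4% and such a run at 55.2%, and the 28 divergent members at 46.4% and 25.0%. A match is a description of the annotated end and not a site of cleavage or priming.

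The ends of 4 intronic or intergenic members with a run and of 1 with a signal are shown, as 50 bases before and 20 after the annotated end on the gene's strand, with capitals for a poly(A) signal or for runs of at least 6 A. They lie at chr3:51234331-51234400 on the plus strand, at chr3:125216895-125216964, chr1:181986316-181986385, chr1:181967679-181967748 and chr4:119295008-119295077 on the minus strand.
Gm38357: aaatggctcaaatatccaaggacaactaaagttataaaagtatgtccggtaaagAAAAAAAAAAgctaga
Gm42826: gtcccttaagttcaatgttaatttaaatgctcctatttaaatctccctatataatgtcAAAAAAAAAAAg
Gm37018: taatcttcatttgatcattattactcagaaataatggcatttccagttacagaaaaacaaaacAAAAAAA
Gm38359: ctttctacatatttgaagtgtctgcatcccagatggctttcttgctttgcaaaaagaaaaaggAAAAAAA
Gm37817: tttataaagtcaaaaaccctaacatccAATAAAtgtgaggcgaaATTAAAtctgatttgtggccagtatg

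The start regions differed too. In 250 bases on each side of the start, the ratio of observed to expected CG dinucleotides had a median of 0.225 over the members, 0.198 over all TEC genes and 0.587 over protein-coding genes. It was 0.846 at the 28 divergent members, 24 of which (85.7%) exceeded 0.6, against 0.735 and 65.4% over all 237 divergent TEC genes. At the intronic members it was 0.194 and 1.6% exceeded 0.6, against 0.177 and 1.03% over all intronic TEC genes. The divergent windows overlap those of their coding partners, from which they cannot be told apart.

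POU6F1 peaks bear on the same windows. A peak shared by both replicates over IgG lay within 1 kb of the start of 35 members (16.7%), against 6.81% of all TEC genes and 60.4% of all genes tested. Of the 28 divergent members 24 had one (85.7%, against 63.7% of all 237 divergent TEC genes), and of the 125 intronic members 4 did. At *Gm27680* the peak overlapped the start, with an enrichment of 58.6-fold and 17.5-fold over IgG in the replicates, and at *4933417C20Rik* with 36.5-fold and 7.93-fold. With the mCherry-only control the count was 12 members (5.71%, against 1.87% of all TEC genes and 21.7% of all genes tested), of which 9 were divergent (32.1% of the 28, against 19.8% of all divergent TEC genes). These cells are not the embryos measured, and the peaks lie at starts shared with a coding gene.

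Genes of the exosome and its adaptors, which hand transcripts to it, were read from a list of 24 that includes *Dis3*. Of these 23 were tested, *Exosc6* being at 0, and in null over het *Dis3* was called down and *Dis3l*, the gene of a cytoplasmic relative, up (2.73, standard error 0.89, adjusted p = 0.084). The 21 others were not called, with a median over the list of 0.19, and ran from -0.91 for *Tent4a* to 0.97 for *Zfc3h1*. *Zfc3h1*, of a nuclear adaptor, was called up over wild-type embryos (1.07, adjusted p = 0.0864), and *Dis3* was called down. *Dis3l* was not called over wild-type embryos (1.80, adjusted p = 0.253), of which E2.5 replicate 6, at 34.3 CPM, lay within the null range. Nor was *Dis3l* called in null over het at E2.75 (1.05, adjusted p = 0.661).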

How the data were processed

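Counts of 23 single-embryo RNA-seq libraries and POU6F1 ChIP-seq peaks were used. The authors deposited raw counts per gene from HTSeq 0.11.4, with strand ignored, after Cutadapt 3.4 and STAR 2.7.8a on GRCm38. The deposited peak lists hold the fold enrichment (a ratio to the control) that the authors computed with MACS2 2.2.7.1. Tests here used edgeR 4.0.16 (TMM, filterByExpr, quasi-likelihood, Benjamini-Hochberg over all genes tested) under R 4.3.3, with DESeq2 1.42.0 and ERCC scaling among the alternatives. Positions came from GENCODE vM21, and tables from Python 3.11.15 with pandas 2.3.3. Named members are the 8 of highest mean CPM, the 8 largest rises and falls called in null over het, the 6 of smallest p whose null and het embryos do not overlap, the 4 largest rises and falls called between stages in wild-type embryos, the 3 of smallest p called only over wild-type, and the 3 on either side of the limit. Gene lists were exosome genes and cell type markers. Members and lists were chosen with earlier results of these data known. The other member called down between stages and the neighbour of 1 named member are not reported here.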

Additional observations from a re-analysis of the deposited data

Results flagged for a closer look

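In 78 groups of 4 to 6 embryos of the same stage and genotype, over 21 genes and 5 summed or library measures, 5 had an embryo far from the others, where chance marks about 1 in 20 groups. The summed level of the divergent members was 797 CPM in E2.5 null replicate 4 and 365 to 428 CPM in the other E2.5 null embryos. *Gm44064* was at 0.112 CPM in E2.75 het replicate 5 and at 0 in the others. *Gm43399* was at 1.93 CPM in E2.5 wild-type replicate 5 and at 0 to 0.0713 CPM in the others, and at 1.66 CPM in E2.75 het replicate 2 and at 0 to 0.337 CPM in the others. *Gm38026* was at 0.724 CPM in E2.5 wild-type replicate 3 and at 0 to 0.0894 CPM in the others.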

How the results depend on the processing

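Null over het, 43 members called up and 1 down: the count up was 16 with members taken by wild-type mean, 20 with a mean CPM of at least 10 and 24 with members that touch no other exon, smaller lists by construction. The count down was 5 by DESeq2 (548 of all 33616 genes), 16 with ERCC scaling (4487 of all 13415), 2 without libraries under 2000000 counts, 2 with members by wild-type mean and 4 with a mean CPM of at least 1. Leaving out each embryo gave 36 to 47 up and 1 to 4 down.

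Null over wild-type, 47 up and 1 down: the count up was 17 with members by wild-type mean, 21 with a mean CPM of at least 10 and 29 with members that touch no other exon. The count down was 5 by DESeq2, 4 with no filter, 2 with stage as covariate, 2 without libraries under 2000000 counts, 2 with members by wild-type mean, 4 with a mean CPM of at least 1 and 0 with at least 10. Leaving out each embryo gave 40 to 50 up and 0 to 4 down.

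Het over wild-type, 0 called: DESeq2 called 3 up and 2 down, and leaving out each embryo gave 0 up and 0 to 1 down. Null over het at E2.75, 38 up and 1 down: the count down was 3 by DESeq2, 4 with no filter and 6 with ERCC scaling (2164 of all 14442 genes), and leaving out each embryo gave 15 to 39 up and 1 down. At E2.5, 0 called: DESeq2 called 33 up and 3 down, and ERCC scaling 5 up and 10 down (39 and 1916 of all 15904 genes). For the stage difference, 0 called, DESeq2 called 2 and the fit with no filter 3.

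E2.75 over E2.5 in wild-type embryos, 4 up and 2 down: the count up was 11 with ERCC scaling (3218 of all 18677 genes) and the count down 9 by DESeq2 (998 of all 33616). Leaving out each embryo gave 1 to 7 up and 0 to 3 down. Members downstream were 2 within 1 kb, in place of 5 within 5 kb. Members with a POU6F1 peak, 35, were 12 with the mCherry-only control and 60 within 5 kb. Of 28 divergent members, 20 called up, 8 touch no other exon and 6 of these were called up, an alternative added after the data were seen. The cause of these differences was not tested.

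With the replicate number as a replicate block, null over het called 25 up and 0 down, beside 216 and 116 of all 13415 genes tested. Null over wild-type called 39 up and 2 down, beside 386 and 174 of all 13415. Null over het at E2.75 called 10 up and 0 down, beside 41 and 52 of all 14442. Between stages in wild-type embryos the replicate block within stage could not be estimated, since it holds the stage. A replicate block by number alone, added after the data were seen, gave 2 up and 1 down. Over 17 pairs with the same number the correlation had a median of 0.005 and none exceeded 0.1, so the numbers pair no samples.

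Limits: embryos are few, 2 het at E2.5, and stages were merged. Counts ignore strand and leave out reads that reach beyond exons. Null libraries were shallower and held more reads outside exons. TMM and ERCC scaling differ in the direction of the members' median in null over het with the stages merged and at E2.5, and not in null over wild-type. Members were chosen by the values compared, and the divergent group was defined after values were seen.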
